A study of Homo sapiens with 62 samples.

Results

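AGS 1q-loss clones 1 and 4 are 2 of the 5 clones of the human gastric adenocarcinoma line AGS from which the extra long arm of chromosome 1 (1q) had been removed. They were chosen by expression level, because expression across chromosome 11 was raised in both, and expression across the long arm of chromosome 13 (13q) was lowered in both, when set against AGS 1q-loss clones 6, 7 and 11. The members were therefore selected on the values described here, and the contrast between these clone sets is given as a description, with no test. The study as a whole holds 62 libraries, and 8 of them come from AGS. Clones 1, 4, 6 and 7 were made with the chromosome-removal technique labelled ReDACT-NS and clone 11 with the version labelled ReDACT-CO, both aimed at 1q. The 3 AGS controls were the parental line (AGS WT, 1 library), which carries the 1q gain, and AGS TK+ clones 1 and 2, which keep that gain and carry a TK integrant; the labels do not describe the integrant further. All loss clones were derived from single cells, each was sequenced as 1 library, and no library was repeated. A difference between clones therefore cannot be told apart from a difference between their libraries. Cells were grown for 24 hours after plating before RNA was taken.

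A cell that gains or loses a chromosome usually transcribes the genes on it in rough proportion to their copies, so an arm whose genes all move together by a small amount is read as a dosage shift. Chromosome 11 carries genes of the DNA damage response such as ATM and CHEK1, the Hippo pathway coactivator YAP1 and its DNA-binding partner TEAD1, and cyclin D1. The long arm of chromosome 13 carries the tumour suppressors RB1 and BRCA2 and the intestinal transcription factor CDX2. DNA copy number was not measured in these files, so whether clones 1 and 4 differ from the others in copies of these arms was not tested.

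The 8 libraries held between 15042068 and 19414614 counts assigned to genes, and 14988 genes passed a filter on low counts. Levels below are CPM, the counts of a gene scaled to a common library size with edgeR's TMM factors. Unless said otherwise, values are listed in the order clone 1 and clone 4, then clones 6, 7 and 11, then the controls WT, TK+ clone 1 and TK+ clone 2. The removal of 1q was visible in all 5 loss clones, where the median shift of 659 genes on 1q against the controls lay between -0.56 and -0.52 on the log2 scale. MDM4, a 1q gene that restrains p53, stood at 42.7 and 57.2 CPM in clones 1 and 4, 55.5, 63.8 and 64.1 in clones 6, 7 and 11, and 84.6, 98.7 and 101 in the controls. In edgeR's quasi-likelihood test of loss against control it gave a log2 fold change -0.74, SE 0.14, adjusted p = 0.0194. UCK2, a pyrimidine salvage kinase on 1q, stood at 62.5 and 63.5 CPM in clones 1 and 4, 69.8, 63.9 and 57 in clones 6, 7 and 11, and 80.4, 91 and 89.2 in the controls. For UCK2 the same test gave a log2 fold change -0.46, SE 0.10, adjusted p = 0.0271. The adjusted p of MDM4 became 0.054 without WT, 0.0703 without TK+ clone 1 and 0.0908 without TK+ clone 2. That of UCK2 became 0.0687, 0.0918 and 0.117 without these controls, 0.0545 without loss clone 1 and 0.0573 without loss clone 7. Each of clones 1 and 4 had the other as its nearest library, with a median absolute log2 difference of 0.19 over the genes that passed the filter and 99 genes apart by at least 4-fold. Clones 6 and 7 were closer still, at 0.13 and 31 genes, and clone 11 was nearest to WT, at 0.25 and 177 genes. Whether clones 1 and 4, or clones 6 and 7, descend from a shared cell was not tested. Mitochondrial genes took 5.31% and 5.55% of the counts in clones 1 and 4, 7.78%, 9.15% and 7.14% in clones 6, 7 and 11, and 5.18%, 6.42% and 6.2% in the controls. The part of this difference in the results below was not tested.

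Of the epithelial markers of a gastric line, 9 of 10 passed the filter, with a summed level between 5451 and 10529 CPM of all counts, and CLDN3 was under 10 counts in every library. In clones 1 and 4, KRT8 and KRT19 were higher and EPCAM, CLDN4, CLDN7, CDH17 and TFF1 lower without overlap, and TFF1 had no count. Of all genes, 26.0% were higher and 24.5% lower without overlap. EPCAM, an adhesion molecule of epithelium, stood at 606 and 603 CPM in clones 1 and 4, 819, 830.2 and 733 in clones 6, 7 and 11, and 718, 871 and 704 in the controls. Of the melanocyte markers 3 of 7 passed, with a sum of 10.5 to 23.3 CPM, and TYR was at 0. Of the basal epithelial markers 5 of 6 passed, with a sum of 496 to 702 CPM, and TP63 was under 10 counts in every library. Of the fibroblast markers 3 of 7 passed, with a sum of 50.1 to 374 CPM that was highest in clone 1, and DCN and LUM were under 10 counts in every library. COL1A1, a fibrillar collagen chain, made up most of that sum, at 369 and 91.9 CPM in clones 1 and 4, 47.4, 50.3 and 115 in clones 6, 7 and 11, and 45.5, 132 and 37.3 in the controls. The other members that passed were lower in clones 1 and 4 and met the size rule given further on. COL3A1, another collagen chain, had 5 and 0 counts in clones 1 and 4, 72, 72 and 23 in clones 6, 7 and 11, and 1, 0 and 5 in the controls, and PDGFRA, a growth factor receptor, stood at 1.27 and 0.229 CPM in clones 1 and 4, 4.93, 3.24 and 3.72 in clones 6, 7 and 11, and 8.57, 19.9 and 11.5 in the controls. Only LYZ of the 8 blood cell markers passed, and CD3E and MS4A1 were at 0. The sum was 21 to 119 CPM in the 5 loss clones and 467, 1921 and 84.3 CPM in the controls, and nearly all of it was LYZ, an antibacterial enzyme that gastric glands also make. In bulk RNA, fewer cells of a kind and less RNA per cell cannot be told apart.

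Expression across chromosome 11 was higher in clones 1 and 4 along its whole length. The shift of an arm was taken as the median, over its genes, of the log2 level minus the mean of the 3 controls, less the same median over the other autosomal arms. For the short arm (265 genes) the shift was 0.41 and 0.46 in clones 1 and 4 and lay between -0.0061 and 0.016 in clones 6, 7 and 11. For the long arm (560 genes) it was 0.42 and 0.57 in clones 1 and 4 and 0.063, 0.059 and 0.039 in clones 6, 7 and 11. The difference between the clone sets was 0.43 (SD 0.011 over clones 6, 7 and 11) for the short arm and 0.44 (SD 0.013) for the long arm, or levels at 135% and 136% of the other clones. With no filter on low counts the differences were 0.219 and 0.325. Neither arm's values overlapped between the sets. In 14 windows of 10 Mb along the chromosome, clone 1 ran from 0.21 at the start of the short arm to 0.65 between 30 and 40 Mb, and clone 4 from 0.37 to 0.80. The other 6 libraries lay between -0.29 and 0.14 in the same windows. No window of chromosome 11 brought clone 1 or clone 4 to the level of the other libraries.

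**Figure D1:**
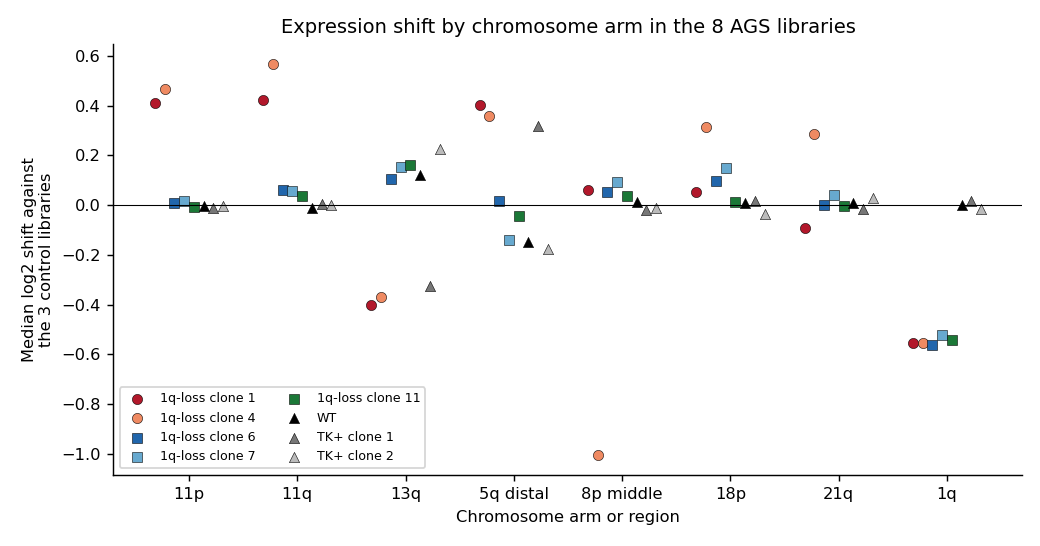
Expression shift of 8 chromosome arms or arm segments against the mean of the 3 controls (log2, y axis), 1 point per library. Clones 1 and 4 sit at 0.41 to 0.57 on 11p and 11q and at -0.40 and -0.37 on 13q, where TK+ clone 1 is at -0.32, and all 5 loss clones sit together on 1q.

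**Figure D2:**
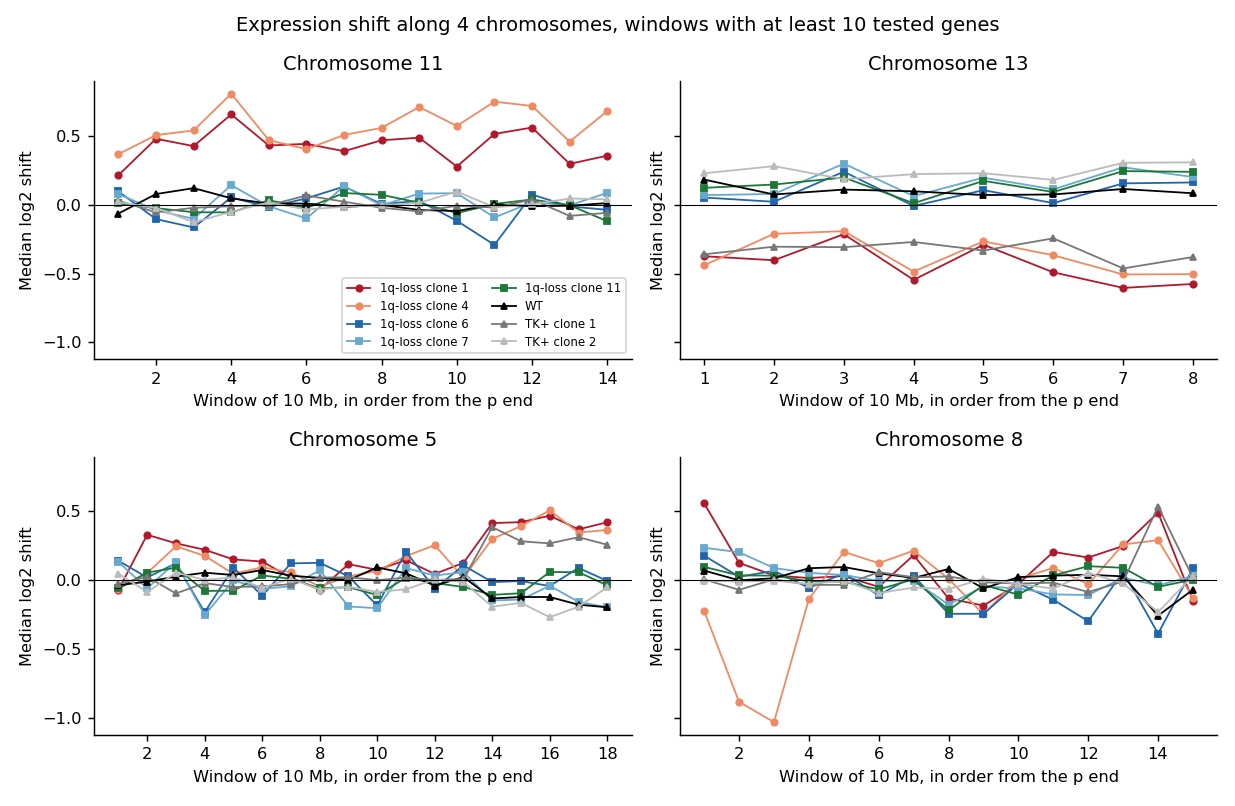
Median shift against the controls (log2, y axis) in windows of 10 Mb along chromosomes 11, 13, 5 and 8 (windows numbered in order from the start of the chromosome, leaving out those with under 10 genes, x axis), 1 line per library. Clones 1 and 4 run above the other libraries over all of chromosome 11, below clones 6, 7 and 11 over chromosome 13, and above them over 5q past 140 Mb. Clone 4 alone dips to -1.03 on the short arm of chromosome 8.

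Gene by gene, 494 of the 825 chromosome 11 genes that passed the filter were higher in both clones 1 and 4 than in any of clones 6, 7 and 11, and 65 were lower in both. Over all 14988 genes the same comparison gave 26.0% higher and 24.5% lower, against 59.9% and 7.88% on chromosome 11; since chromosome 11 was part of the choice, nothing is read from that gap. The median difference was 0.44, the middle 50% of the genes lay between 0.088 and 0.72, and 660 genes (80%) were above 0. When the chromosome 11 genes were split at the levels that divide all genes tested into 3 equal groups (249, 263 and 313 genes), the median was 0.37 in the lowest, 0.52 in the middle and 0.40 in the highest group. A stricter size rule, which asked for no overlap and a log2 difference of at least 1, was met by 73 genes in the higher direction and 23 in the lower direction, against 3.83% and 5.36% of all genes. Beside these, 411 of the 494 higher genes stood outside the range of all 6 other AGS libraries, and each single control was nearer to clones 1 and 4 in between 81 and 92 of the 494.

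**Figure D3:**
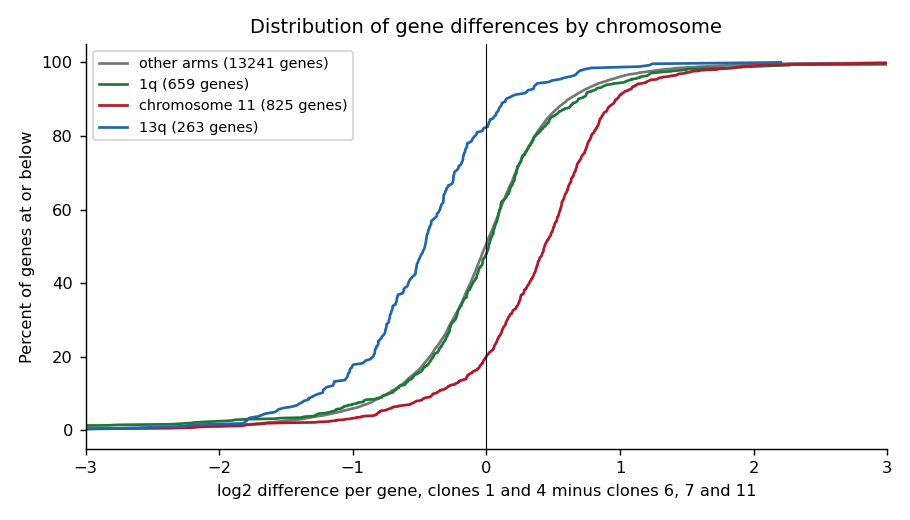
Cumulative share of genes (y axis) by log2 difference between clones 1 and 4 and clones 6, 7 and 11 (x axis), for 825 genes of chromosome 11, 263 of 13q, 659 of 1q and 13241 of the other arms. The chromosome 11 curve is displaced to the right with a median of 0.44 and the 13q curve to the left with a median of -0.46, while the 1q median is 0.017.

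The DNA damage response genes of chromosome 11 had a median difference of 0.66. Of 18 genes, 16 did not overlap, all in the higher direction, beside 59.9% of all chromosome 11 genes. CHEK1 (ENSG00000149554, chromosome 11, 125625136 to 125676255, plus strand) is the kinase that holds cells with unreplicated or damaged DNA before mitosis. It stood at 91.3 and 101 CPM in clones 1 and 4, 24.9, 21.9 and 32.8 in clones 6, 7 and 11, and 30.4, 32.5 and 32.8 in the controls. The other 6 libraries lay close together and far under clones 1 and 4, with a log2 difference of 1.87 (SD 0.30 over clones 6, 7 and 11). RRM1, the large subunit of ribonucleotide reductase, which makes deoxynucleotides, stood at 142 and 165 CPM in clones 1 and 4, 65.7, 64.7 and 50 in clones 6, 7 and 11, and 58.1, 59.4 and 70 in the controls. MRE11, a nuclease of the double-strand break complex, stood at 72.4 and 71.5 CPM in clones 1 and 4, 37.8, 38.5 and 35.4 in clones 6, 7 and 11, and 36.5, 33.5 and 44.5 in the controls. ATM, the kinase that starts the response to double-strand breaks, stood at 64.6 and 83.6 CPM in clones 1 and 4, 39.4, 38.2 and 48.8 in clones 6, 7 and 11, and 54.9, 58.8 and 51.4 in the controls. NPAT, which overlaps ATM at its start, had a log2 difference of 0.95. H2AFX, the histone that ATM marks at breaks, had a difference of 0.65 and FEN1, the flap endonuclease of lagging-strand synthesis, of 0.74. POLD4 and MUS81 were the members whose values overlapped. POLD4, the smallest subunit of DNA polymerase delta, stood at 18 and 21.5 CPM in clones 1 and 4 and 22, 15.2 and 18.2 in clones 6, 7 and 11. MUS81, a structure-specific nuclease, stood at 94.2 and 94.1 CPM in clones 1 and 4 and 53.1, 56.3 and 111 in clones 6, 7 and 11, with clone 11 the highest of the 5.

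Among growth and cell cycle genes of chromosome 11, 12 of 21 were higher without overlap and none was lower (median 0.57), a share close to the 59.9% of all chromosome 11 genes. WEE1, the kinase that restrains entry into mitosis, stood at 210.2 and 244 CPM in clones 1 and 4, 61.9, 81.3 and 159 in clones 6, 7 and 11, and 105, 90.4 and 108 in the controls. Clone 11 was the nearest of the other libraries. TEAD1, the transcription factor that recruits YAP1, stood at 309 and 289.7 CPM in clones 1 and 4, 125, 128 and 170.3 in clones 6, 7 and 11, and 198, 171 and 169.5 in the controls. YAP1 stood at 502 and 497 CPM in clones 1 and 4, 311, 314 and 386 in clones 6, 7 and 11, and 449, 350.3 and 429 in the controls. Both were highest in clones 1 and 4, with log2 differences of 1.10 and 0.57, and for YAP1 the WT library came near them. GAB2, a docking protein of receptor tyrosine kinases, had a difference of 1.06, the integrin-linked kinase ILK of 1.20, the ubiquitin ligase CBL of 0.85 and the histone methyltransferase KMT2A of 0.76. CCND1, cyclin D1, stood at 1583 and 1164 CPM in clones 1 and 4, 1355, 1369 and 988 in clones 6, 7 and 11, and 1122, 984 and 940.5 in the controls. Clone 4 was below clones 6 and 7, and the sets overlapped. HRAS and CTTN, a GTPase and an actin-binding protein, overlapped too, with differences of 0.08 and -0.01.

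Housekeeping genes of chromosome 11 followed the arm. Of 13 genes of the ribosome, translation and proteasome, 12 were higher without overlap (median 0.40), beside 59.9% of chromosome 11 genes, and RPS25 overlapped. PSMC3, an ATPase subunit of the proteasome cap, stood at 154 and 152 CPM in clones 1 and 4, 84.9, 77.6 and 77.2 in clones 6, 7 and 11, and 66.1, 71.9 and 59.2 in the controls. EIF3F, a subunit of a translation initiation complex, stood at 240.2 and 266 CPM in clones 1 and 4, 152, 147 and 151 in clones 6, 7 and 11, and 148, 138 and 122 in the controls. RPLP2, a ribosomal stalk protein, stood at 718 and 711 CPM in clones 1 and 4, 624, 621 and 628 in clones 6, 7 and 11, and 838, 627 and 685 in the controls, a smaller difference of 0.20. Of 20 genes of mitochondria and metabolism, 15 were higher without overlap (median 0.64), beside the same 59.9%, while PC, CPT1A, FTH1, PYGM and SC5D overlapped. FADS2, a fatty acid desaturase whose gene overlaps FEN1, met the size rule at 4.36 and 4.86 CPM in clones 1 and 4 and 2.08, 1.59 and 1.46 in clones 6, 7 and 11. GSTP1, a glutathione transferase, stood at 1034 and 948 CPM in clones 1 and 4, 586, 556 and 543 in clones 6, 7 and 11, and 468, 554 and 391 in the controls. LDHA, which makes lactate from pyruvate, stood at 593 and 681 CPM in clones 1 and 4, 416, 427 and 257 in clones 6, 7 and 11, and 239, 228 and 222 in the controls. Here clones 6 and 7 lay between clones 1 and 4 and the rest. UCP2, a carrier of the inner mitochondrial membrane, stood at 59.7 and 57.9 CPM in clones 1 and 4, 37.5, 35.5 and 30.2 in clones 6, 7 and 11, and 21.6, 26.3 and 18.5 in the controls. All 5 loss clones were above all 3 controls.

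Apoptosis and surface genes of chromosome 11 included members in both directions, where 59.9% of all chromosome 11 genes were higher and 7.88% lower without overlap. Of 12 apoptosis and NF-kB genes, BIRC2, TRAF6, API5, MADD and EI24 were higher and CASP4 was lower without overlap (median 0.18). Of 17 surface, matrix and epithelial genes, CADM1, CTSC, ELF5, ADM and ASCL2 were higher, CD81, DKK3, CTSD and MMP1 were lower, and the median was 0.056, well under that of the arm. CD44, the hyaluronan receptor, stood at 48.1 and 59.8 CPM in clones 1 and 4, 58.5, 60.7 and 58.8 in clones 6, 7 and 11, and 53.6, 81.6 and 52.8 in the controls, with no separation of the sets. Of the 5 long noncoding RNAs, KCNQ1OT1 and SNHG1 were higher and MALAT1 and NEAT1 lower. NEAT1, the scaffold of nuclear paraspeckles, stood at 833 and 868 CPM in clones 1 and 4, 1184, 1282 and 1405 in clones 6, 7 and 11, and 829, 1483 and 1551 in the controls. WT was as low as clones 1 and 4. H19, an imprinted RNA, stood at 20 and 52 CPM in clones 1 and 4, 172, 135 and 46 in clones 6, 7 and 11, and 11.3, 2.52 and 13.3 in the controls, with all 5 loss clones above the 3 controls.

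Some chromosome 11 genes lay far from the shift of their arm. CADM1, an adhesion molecule of the immunoglobulin family, stood at 139.7 and 105 CPM in clones 1 and 4, 12.2, 13.6 and 16.9 in clones 6, 7 and 11, and 14, 17.7 and 9.32 in the controls. PRR5L, a partner of the kinase complex mTORC2, stood at 73.2 and 101 CPM in clones 1 and 4, 12.1, 12.1 and 12.1 in clones 6, 7 and 11, and 8.2, 9.26 and 3.95 in the controls. KIF18A, a kinesin that damps chromosome movements at the spindle, stood at 63.9 and 81.4 CPM in clones 1 and 4, 17.8, 19.4 and 18.4 in clones 6, 7 and 11, and 18.8, 19.8 and 18.7 in the controls. In all of these the other 6 libraries lay close together and far under clones 1 and 4, with log2 differences of 3.09, 2.82 and 1.95. DDIAS, an anti-apoptotic protein tied to DNA damage, had a difference of 1.91 and DYNC2H1, the motor of transport within cilia, of 2.26. PLEKHB1 had a difference of 3.28, from a level of 17.4 and 24.1 CPM in clones 1 and 4, 0.713, 1.79 and 5.91 in clones 6, 7 and 11, and 4.7, 10.6 and 1.18 in the controls, so that TK+ clone 1 came nearest to clones 1 and 4. ELF5, an epithelial transcription factor, stood at 6.05 and 11.3 CPM in clones 1 and 4 and 2.97, 3.11 and 1.13 in clones 6, 7 and 11. RAG1, an enzyme of antigen receptor recombination, stood at 5.69 and 18 CPM in clones 1 and 4 and 2.26, 3.05 and 2.59 in clones 6, 7 and 11. CST6, a protease inhibitor, stood at 2.91 and 3.49 CPM in clones 1 and 4 and 0.891, 0.728 and 0.266 in clones 6, 7 and 11, so that these differences were measured at low levels.

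In the other direction, CASP4, an inflammatory caspase that senses bacterial lipopolysaccharide (ENSG00000196954, chromosome 11, 104942866 to 104969436, minus strand), stood at 0.847 and 2.69 CPM in clones 1 and 4, 24.1, 16.7 and 37.3 in clones 6, 7 and 11, and 42.5, 25 and 47.1 in the controls. The 2 clones were nearly without it while all others held at least 16.7 CPM, a log2 difference of -3.91 (SD 0.58 over clones 6, 7 and 11). USH1C and CDHR5 are components of the links between intestinal microvilli. The level of USH1C was 5.33 and 1.43 CPM in clones 1 and 4 and 35.6, 34.8 and 20.3 in clones 6, 7 and 11, and its log2 difference was -3.34. That of CDHR5 was 10.8 and 3.66 CPM in clones 1 and 4 and 28.3, 34.4 and 25.2 in clones 6, 7 and 11, with a difference of -2.18. IFITM1, an interferon-induced membrane protein, stood at 64.6 and 32.1 CPM in clones 1 and 4, 279.8, 327 and 141 in clones 6, 7 and 11, and 174, 309 and 280.0 in the controls. SLCO2B1, an organic anion transporter, stood at 18.7 and 3.83 CPM in clones 1 and 4, 120.1, 98.2 and 23.7 in clones 6, 7 and 11, and 12.5, 22.9 and 28.4 in the controls. Clones 6 and 7 were far above the controls for it. RARRES3, P2RY6, GRAMD1B, SLC22A11 and FERMT3 were lower by -2.23 to -1.81, each from a level of at most 13 CPM in every library. GRAMD1B was counted rarely, with 3 and 12 counts in clones 1 and 4, 47, 55 and 13 in clones 6, 7 and 11, and 43, 51 and 26 in the controls.

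Expression across 13q was lower in clones 1 and 4, and TK+ clone 1 shared this. The shift of the arm (263 genes) was -0.40 and -0.37 in clones 1 and 4 and 0.10, 0.15 and 0.16 in clones 6, 7 and 11. In the controls it was 0.12 in WT, -0.32 in TK+ clone 1 and 0.23 in TK+ clone 2. The difference between the clone sets was -0.52 (SD 0.031), or 69.5% of the level in clones 6, 7 and 11. With no filter on low counts it was -0.192. In 8 windows along the chromosome, clone 1 lay between -0.60 and -0.21, clone 4 between -0.51 and -0.19 and TK+ clone 1 between -0.46 and -0.24, while the other 5 libraries lay between -0.0096 and 0.31. Of the 263 genes, 161 (61.2%) were lower in clones 1 and 4 without overlap and 16 were higher, beside 24.5% and 26.0% of all genes, with a median of -0.46. For 100 of the 161, TK+ clone 1 was nearer to clones 1 and 4 than to clones 6, 7 and 11. WT was nearer to clones 1 and 4 for 23 of them and TK+ clone 2 for 15. The size rule was met by 42 of the 263 genes in the lower direction and 4 in the higher direction, beside 5.36% and 3.83% of all genes.

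CDX2 (ENSG00000165556, chromosome 13, 27962137 to 27971139, minus strand) is the homeobox factor that drives intestinal identity. It stood at 23.2 and 13.3 CPM in clones 1 and 4, 61.3, 65.9 and 44.7 in clones 6, 7 and 11, and 59.7, 29.8 and 63.8 in the controls. The lowest libraries were clones 1 and 4, then TK+ clone 1, and the log2 difference was -1.68 (SD 0.30 over clones 6, 7 and 11). Of the 6 epithelial transcription factors of 13q, CDX2, KLF5, PDX1, ELF1 and TSC22D1 were lower without overlap and KLF12 overlapped (median -0.37), beside the 61.2% of 13q genes that were lower without overlap. KLF5, a factor of proliferating gut epithelium, stood at 242 and 294 CPM in clones 1 and 4, 308, 303 and 332 in clones 6, 7 and 11, and 320.3, 209 and 363 in the controls. Its difference was smaller, -0.24, and TK+ clone 1 was below clones 1 and 4. PDX1, a factor of the pancreas, duodenum and distal stomach, stood at only 2.78 and 2.46 CPM in clones 1 and 4 and 5.76, 5.3 and 3.26 in clones 6, 7 and 11.

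Of 12 signalling and matrix genes of 13q, 6 were lower without overlap, beside 61.2% of 13q genes, and RCBTB2 was higher (median -0.38). TNFRSF19, COL4A1, COL4A2, FGF9 and EDNRB overlapped. SPRY2, a feedback inhibitor of receptor tyrosine kinase signalling, stood at 12.4 and 11.4 CPM in clones 1 and 4, 51.9, 50.6 and 28.4 in clones 6, 7 and 11, and 39.9, 36.4 and 46 in the controls. EFNB2, the ligand ephrin-B2, stood at 100.1 and 90.3 CPM in clones 1 and 4, 221, 216 and 229 in clones 6, 7 and 11, and 162, 85.8 and 165 in the controls. For SPRY2 TK+ clone 1 lay with the other controls, whereas for EFNB2 it lay with clones 1 and 4. GAS6, the ligand of AXL, had a difference of -0.83, and RASA3, a GTPase-activating protein, had 1 and 4 counts in clones 1 and 4, 61, 35 and 12 in clones 6, 7 and 11, and 11, 16 and 21 in the controls. ARGLU1, a splicing-related protein, stood at 138 and 144 CPM in clones 1 and 4, 335, 368 and 363 in clones 6, 7 and 11, and 288, 218 and 434 in the controls. RASL11A, F10, PHF11, NEK3, CLYBL and ANKRD10 completed the 10 protein-coding genes with the largest decrease, at differences between -2.22 and -1.37. COL4A1, a basement membrane collagen chain, stood at 7.38 and 4.23 CPM in clones 1 and 4, 7.07, 12 and 17.9 in clones 6, 7 and 11, and 57, 57.4 and 64 in the controls. All 5 loss clones were below the controls, and the sets within them overlapped. It fell in loss against control (log2 fold change -2.62, SE 0.37, adjusted p = 0.00766, edgeR quasi-likelihood test).

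Cell cycle, repair and tumour suppressor genes of 13q had a median of -0.32. Of 23 genes, 12 were lower and 4 higher without overlap, beside 61.2% and 6.08% of all 13q genes. BRCA2 (ENSG00000139618, chromosome 13, 32315474 to 32400266, plus strand), a protein of the repair of broken DNA, stood at 40.5 and 49.3 CPM in clones 1 and 4, 19.9, 20 and 20.5 in clones 6, 7 and 11, and 24.4, 18.5 and 29.4 in the controls. RFC3, a subunit of the clamp loader of replication, stood at 57.7 and 58.8 CPM in clones 1 and 4, 34.9, 38 and 34.8 in clones 6, 7 and 11, and 27.9, 19.1 and 33.8 in the controls. SKA3, a kinetochore protein, stood at 29.5 and 30 CPM in clones 1 and 4, 18.6, 18.1 and 18.6 in clones 6, 7 and 11, and 20.6, 18.5 and 23.4 in the controls. CKAP2, a spindle protein, was the other higher member, with a difference of 0.47. These 4 were higher in clones 1 and 4 although their arm was lower. RB1, the retinoblastoma protein, stood at 92.8 and 80.2 CPM in clones 1 and 4, 83.5, 91.5 and 113 in clones 6, 7 and 11, and 101, 65.5 and 109 in the controls. The loss clones overlapped, clone 11 was the highest and TK+ clone 1 the lowest of the 8. TFDP1, the dimer partner of E2F factors, stood at 146 and 151 CPM in clones 1 and 4, 233, 240.0 and 200.3 in clones 6, 7 and 11, and 228, 137 and 277 in the controls. CUL4A, a ubiquitin ligase scaffold, had a difference of -0.50, and LATS2, a Hippo kinase, of -0.32. Besides BRCA2, the genes past the size rule in the higher direction were LPAR6, RCN1P2 and SUGT1P3, named after their values were seen. LPAR6, a lysophosphatidic acid receptor whose gene lies within RB1, stood at 0.908 and 1.26 CPM in clones 1 and 4, 0.119, 0.0662 and 0.266 in clones 6, 7 and 11, and 3.45, 5.5 and 0.295 in the controls. The other two are pseudogenes.

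General genes of 13q mostly followed the arm, with 18 of 26 lower and HMGB1 and ESD higher without overlap (median -0.47), beside 61.2% of 13q genes that were lower. TPT1, an abundant translationally controlled protein, stood at 876 and 961 CPM in clones 1 and 4, 1548, 1438 and 1862 in clones 6, 7 and 11, and 2303, 1288 and 1951 in the controls. LAMP1, a lysosomal membrane protein, stood at 385 and 311 CPM in clones 1 and 4, 549, 549 and 656 in clones 6, 7 and 11, and 569, 387 and 539 in the controls. For LAMP1 TK+ clone 1 was close to clone 1, and clone 4 was the lowest. HMGB1, a chromatin protein, stood at 427 and 451 CPM in clones 1 and 4, 420.2, 417 and 390.4 in clones 6, 7 and 11, and 428, 311 and 454 in the controls, a difference of only 0.10.

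Differences on the other arms were smaller. Over the 37 other arms with at least 30 genes the difference lay between -0.32 and 0.20 with a median size of 0.065, and 2 arms, 8p and 5q, passed 0.2. The clone sets did not overlap on 5q, but on 8p clone 1, at 0.055, lay within the range of clones 6, 7 and 11. Many arms with smaller differences showed no overlap either. Among them were 4q (0.19, SD 0.029), 10p (0.16, SD 0.019), 22q (-0.14, SD 0.038) and 17p (-0.14, SD 0.036). Others were Xp (-0.13, SD 0.046), 16p (-0.13, SD 0.027) and 19q (-0.11, SD 0.015). These arms were singled out after their values were seen.

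The far part of 5q stood apart in the same 3 libraries as 13q, in the higher direction. Past 140 Mb (226 genes) the shift was 0.40 and 0.36 in clones 1 and 4, 0.017, -0.14 and -0.043 in clones 6, 7 and 11, and -0.15, 0.32 and -0.18 in the controls. The high libraries were clones 1 and 4 and TK+ clone 1. On the rest of 5q (316 genes) the shift was 0.082 and 0.068 in clones 1 and 4. Of the 226 distal genes, 131 were higher without overlap and 13 lower, beside 26.0% and 24.5% of all genes, with a median of 0.42. For 79 of the 131, TK+ clone 1 was nearer to clones 1 and 4. Clone 4 alone was low on the short arm of chromosome 8: between 9 and 30 Mb (99 genes) its shift was -1.0, against 0.061 in clone 1 and 0.035 to 0.091 in the other loss clones. It was also raised on 18p (0.32, others 0.013 to 0.15) and 21q (0.29, others -0.091 to 0.040). The boundaries at 140, 9 and 30 Mb were chosen after the values were seen.

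A pair of neighbouring genes inside that part of 8p was nearly silent in both clones. SORBS3 (ENSG00000120896, chromosome 8, 22544986 to 22575788, plus strand), the adhesion protein vinexin, stood at 1.82 and 0.629 CPM in clones 1 and 4, 56.4, 56.5 and 64.2 in clones 6, 7 and 11, and 54.2, 51.6 and 55 in the controls. PPP3CC (ENSG00000120910, chromosome 8, 22440819 to 22541142, plus strand), a catalytic subunit of calcineurin, stood at 0.242 and 0.229 CPM in clones 1 and 4, 6.18, 5.49 and 4.65 in clones 6, 7 and 11, and 4.6, 4.27 and 4.48 in the controls. PPP3CC had 4 counts in each of clones 1 and 4 and 66 to 104 in the other libraries. All 6 other libraries were close together for both genes. The genes on either side, named after their values were seen, did not share this. SLC39A14, a metal transporter, stood at 272 and 128 CPM in clones 1 and 4 and 239, 236 and 248 in clones 6, 7 and 11, and only clone 4 was low. PDLIM2, a cytoskeletal adaptor, stood at 57 and 32.1 CPM in clones 1 and 4 and 37.1, 36.2 and 48.8 in clones 6, 7 and 11, with clone 1 the highest of the 5.

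Away from chromosomes 11, 13 and 1q, 13241 genes passed the filter, of which 3233 were higher (24.4%) and 3287 lower (24.8%) in clones 1 and 4 without overlap. The size rule was met by 466 genes in the higher direction (3.52%) and 701 in the lower (5.29%). With 2 clones against 3, an exact permutation test could not go below a two-sided p of 0.2, and no such test was made. For 710 of these 1167 genes (60.8%) all 3 controls were nearer to clones 6, 7 and 11, and for 119 (10.2%) all 3 were nearer to clones 1 and 4. For 926 of the 1167, clones 1 and 4 lay outside the range of all 6 other AGS libraries.

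Among the genes with the largest decrease elsewhere, VTN, the plasma and matrix protein vitronectin, stood at 10 and 0.4 CPM in clones 1 and 4, 449.8, 429.6 and 219.9 in clones 6, 7 and 11, and 614, 1953 and 679.9 in the controls. PLA2G2A, a secreted phospholipase of the gut, stood at 89.6 and 14.7 CPM in clones 1 and 4, 1572, 1309 and 393 in clones 6, 7 and 11, and 1648, 6615 and 2080.0 in the controls. CEACAM5, the carcinoembryonic antigen, stood at 1.94 and 0.343 CPM in clones 1 and 4, 55.5, 69.1 and 20.1 in clones 6, 7 and 11, and 57, 42.8 and 65.4 in the controls. All 3 were lowest in clone 4, next in clone 1 and then in clone 11, with log2 differences of -7.24, -4.68 and -5.45. UGT1A6, a glucuronidation enzyme, had 1 and 0 counts in clones 1 and 4, 322, 291 and 123 in clones 6, 7 and 11, and 320, 534 and 454 in the controls; it shares exons with the other UGT1A genes, so its counts are uncertain. DUOX2, an oxidase of mucosal surfaces, stood at 1.27 and 0.286 CPM in clones 1 and 4 and 23.2, 24.4 and 2.66 in clones 6, 7 and 11. GCNT3, which branches mucin glycans, stood at 2.97 and 4.18 CPM in clones 1 and 4, 74.5, 63.8 and 29.7 in clones 6, 7 and 11, and 42.7, 33 and 80.7 in the controls. CDH11, a mesenchymal cadherin, HKDC1, a hexokinase-like protein, LYPD6 and ST6GALNAC3 had differences between -4.21 and -3.80, and MYH4, a myosin of fast muscle, had 2 and 2 counts in clones 1 and 4, 62, 67 and 116 in clones 6, 7 and 11, and 381, 393 and 330 in the controls.

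Among the genes with the largest increase elsewhere, PDE4D, a cyclic AMP phosphodiesterase on chromosome 5 (58969038 to 60522120), stood at 427 and 296 CPM in clones 1 and 4, 32.4, 33.4 and 32.2 in clones 6, 7 and 11, and 21.5, 13.9 and 21.4 in the controls. SPP1, the secreted protein osteopontin, stood at 118 and 98.6 CPM in clones 1 and 4, 8.85, 8.47 and 1.53 in clones 6, 7 and 11, and 0, 2.07 and 0.236 in the controls. Both were far above the other 6 libraries, as were KLK5 and ESM1. KLK5, a skin protease, stood at 38 and 20.7 CPM in clones 1 and 4, 1.07, 1.13 and 2.99 in clones 6, 7 and 11, and 1.72, 2.4 and 0.531 in the controls. ESM1, a proteoglycan, stood at 6.54 and 23.3 CPM in clones 1 and 4 and 0 to 1.52 CPM in the rest. GALNT5, which starts mucin-type glycosylation, stood at 27 and 39.1 CPM in clones 1 and 4, 1.78, 0.927 and 0 in clones 6, 7 and 11, and 17.5, 18 and 19.8 in the controls. Here the controls lay with clones 1 and 4. JDP2, a repressor of AP-1, stood at 26.5 and 26.5 CPM in clones 1 and 4, 0.0594, 0 and 10.3 in clones 6, 7 and 11, and 7.73, 24.5 and 0 in the controls. It was near or at 0 in clones 6 and 7 and in TK+ clone 2, and TK+ clone 1 matched clones 1 and 4. WNT5B and POF1B showed the same kind of split. WNT5B, a secreted WNT ligand, stood at 11.6 and 9.55 CPM in clones 1 and 4, 0.356, 0.199 and 8.71 in clones 6, 7 and 11, and 10, 8.16 and 0.059 in the controls. Clone 11, WT and TK+ clone 1 were near clones 1 and 4 for it. HTR2C, GABRA3, DTNA, ZFP82 and SIGLEC6 had differences between 3.20 and 4.58. GABRA3, a receptor subunit for the transmitter GABA, stood at 99.7 and 49.1 CPM in clones 1 and 4, 5.28, 5.43 and 13.2 in clones 6, 7 and 11, and 0.888, 1.17 and 0.177 in the controls. All 5 loss clones lay above the controls.

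**Figure D4:**
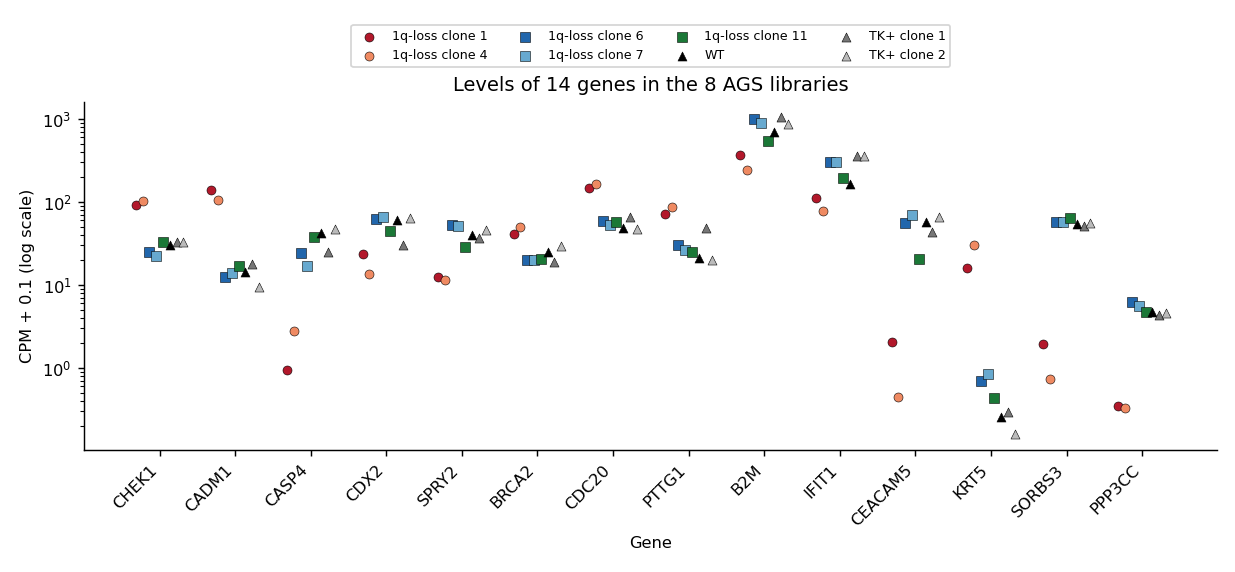
Levels of 14 named genes in the 8 AGS libraries (CPM plus 0.1, log axis), 1 point per library and 1 gene per position on the x axis. A gap parts clones 1 and 4 from the other 6 libraries for CHEK1, CADM1, CASP4, BRCA2, CDC20, KRT5, SORBS3 and PPP3CC, and TK+ clone 1 lies nearest to them for CDX2.

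Genes of mitosis stood higher in clones 1 and 4 without an exception: 18 of 18 did not overlap, 15 met the size rule, the median difference was 1.23, and all 18 were above all 6 other libraries. In comparison, 24.4% of all genes elsewhere were higher without overlap and 3.52% met the size rule in that direction. Of the 466 genes elsewhere that met it, 404 stood above all 6 other libraries. For this list and those below, the share of all genes beyond all 6 other libraries was not computed. CDC20, the activator of the anaphase-promoting complex, stood at 145 and 162 CPM in clones 1 and 4, 58.4, 53 and 56.6 in clones 6, 7 and 11, and 48, 65.5 and 46.3 in the controls. PLK1, a kinase of spindle assembly, stood at 83.4 and 81.5 CPM in clones 1 and 4, 37.2, 35.9 and 30.2 in clones 6, 7 and 11, and 36, 47.8 and 36 in the controls. CCNB2, a cyclin of mitotic entry, stood at 101 and 101 CPM in clones 1 and 4, 34, 33.5 and 43.1 in clones 6, 7 and 11, and 41.3, 55.2 and 39.8 in the controls. In each of these clones 1 and 4 lay close together and stood well above the highest of the other 6 libraries. BUB1 and BUB1B, checkpoint proteins of the kinetochore, had differences of 1.30 and 1.30, TOP2A, which untangles DNA, of 1.20, and TPX2, a spindle assembly factor, of 1.26. PTTG1, securin, which guards sister chromatid cohesion, stood at 70.7 and 86 CPM in clones 1 and 4, 29.7, 26.5 and 24.9 in clones 6, 7 and 11, and 20.7, 48.6 and 19.8 in the controls, and TK+ clone 1 came next. PTTG1 lies on the far part of 5q that is itself raised in these 3 libraries. MKI67, the proliferation antigen Ki-67, had a difference of 1.01. Under 1.0 were CDK1 (0.75), the main mitotic kinase, KIF11 (0.97), a spindle motor, and AURKB (0.67), a kinase of chromosome segregation.

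Genes of E2F and DNA replication, which act in the step before mitosis, stood higher too, but by less: 20 of 22 were higher without overlap, 18 of them above all 6 other libraries, with a median of 0.73, beside 24.4% of all genes elsewhere that were higher without overlap. MCM2, a subunit of the replicative helicase, stood at 68.3 and 68.4 CPM in clones 1 and 4, 31.5, 27.3 and 24.3 in clones 6, 7 and 11, and 25.4, 19.9 and 29.7 in the controls. It was the member that met the size rule, which 3.52% of all genes elsewhere met in that direction. GINS2, another helicase component, stood at 25.6 and 26.3 CPM in clones 1 and 4, 12.7, 13.9 and 12.6 in clones 6, 7 and 11, and 13.7, 9.97 and 15.2 in the controls. CDT1, which loads the helicase, stood at 74.1 and 75.5 CPM in clones 1 and 4, 40, 35.9 and 40.1 in clones 6, 7 and 11, and 35.1, 40.2 and 48 in the controls. PCNA, the sliding clamp, had a difference of 0.47. CCNE2, a cyclin of the entry into replication, was lower without overlap, at 8.17 and 7.61 CPM in clones 1 and 4 and 9.68, 10.4 and 8.57 in clones 6, 7 and 11. Its relative CCNE1 overlapped, at 47.2 and 37 CPM in clones 1 and 4 and 42, 46 and 33.3 in clones 6, 7 and 11. CCNE1, CCNE2, CDT1, GINS2 and PCNA, like CDK1, KIF11 and AURKB, were named after their values were seen.

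The promoters of these genes are shown because members of each list stood apart together. Sequences are RefSeq's, from the build GRCh38.p14, 80 bases each, 5′ to 3′ on the strand of the gene, with capitals for the motif searched on both strands in the 250 bases before the start. For the first 3 genes the motif is TTTGAA, the core of the cell cycle homology region of mitotic genes, and for GINS2 it is the E2F motif TTTCCCGC, read here on the opposite strand.
PLK1 (chr16:23678809-23678888, plus strand): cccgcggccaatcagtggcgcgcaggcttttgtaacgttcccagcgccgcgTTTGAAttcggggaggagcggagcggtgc
CCNB2 (chr15:59105066-59105145, plus strand): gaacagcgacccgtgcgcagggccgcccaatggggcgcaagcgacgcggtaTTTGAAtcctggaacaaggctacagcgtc
CDC20 (chr1:43358879-43358958, plus strand): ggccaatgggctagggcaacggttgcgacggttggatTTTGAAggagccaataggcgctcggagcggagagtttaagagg
GINS2 (chr16:85688955-85689034, minus strand): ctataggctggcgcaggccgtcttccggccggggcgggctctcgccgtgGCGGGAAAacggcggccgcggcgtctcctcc
TTTGAA was found in 8 of the 15 mitosis promoters in the table and in none of the 18 replication promoters, against 13.6% of all 27195 promoters and 8.13% of the 10124 promoters of genes that passed the filter. TTTCCCGC was found in 7 of the 18 replication promoters and in none of the 15 mitosis promoters, against 1.42% of all promoters and 2.29% of those of genes that passed the filter. It was also found in 2 of 10 promoters of the interferon list. A match shows only that these letters stand in the window.

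Genes of HLA class I presentation, by which cells show peptides to T cells, stood lower in clones 1 and 4: 14 of 14 did not overlap, 8 met the size rule, and the median was -1.25. Of all genes elsewhere, 24.8% were lower without overlap and 5.29% met the size rule in that direction. Without clone 4 the median was -0.81, and without clone 1 it was -1.53. All 14 were below all 6 other libraries, as were 522 of the 701 genes elsewhere that met the size rule in the lower direction. B2M, the light chain shared by class I molecules, stood at 367 and 240.2 CPM in clones 1 and 4, 1003, 892 and 547 in clones 6, 7 and 11, and 696, 1042 and 873 in the controls. HLA-B, a heavy chain, stood at 81.5 and 17.9 CPM in clones 1 and 4, 107, 118 and 121 in clones 6, 7 and 11, and 216, 377 and 301 in the controls. Clone 4 was the lowest library for both, and for B2M clone 11 was the lowest of clones 6, 7 and 11 and the controls. The heavy chain genes resemble one another, so how reads were divided among them is uncertain. NLRC5, the transactivator of class I genes, stood at 16.2 and 4.58 CPM in clones 1 and 4, 21.7, 25.7 and 45.8 in clones 6, 7 and 11, and 45, 70.5 and 71.8 in the controls. PSMB8 and PSMB9, subunits of the immunoproteasome, had differences of -1.66 and -1.81, and TAP1 and TAP2, which carry peptides into the endoplasmic reticulum, of -0.67 and -1.09. TAP1 was named after its values were seen.

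Interferon-stimulated genes stood lower as well: 11 of 14 (17 listed) without overlap and none higher, 9 past the size rule, with a median of -1.44. Over all genes elsewhere these shares were 24.8% and 5.29%. The median was -0.90 without clone 4 and -1.84 without clone 1. IFIT1, which binds foreign RNA, stood at 112 and 77.1 CPM in clones 1 and 4, 301, 298 and 195 in clones 6, 7 and 11, and 164, 354 and 352 in the controls. IFIT3, its partner, stood at 31.3 and 24.1 CPM in clones 1 and 4, 154, 150.1 and 78.9 in clones 6, 7 and 11, and 69.4, 145 and 165 in the controls. OAS2, which senses double-stranded RNA, stood at 17.8 and 5.03 CPM in clones 1 and 4, 52.1, 50.3 and 31.6 in clones 6, 7 and 11, and 54.7, 189 and 193 in the controls. For both IFIT genes clone 11 was the lowest of clones 6, 7 and 11 and WT was lower still, while for OAS2 both TK+ clones were far above every other library. ISG15, a ubiquitin-like protein, stood at 337 and 250.3 CPM in clones 1 and 4, 706, 669 and 576 in clones 6, 7 and 11, and 448, 818 and 780.2 in the controls. IFIH1, an RNA sensor, stood at 26.8 and 22 CPM in clones 1 and 4, 94.6, 103 and 61.1 in clones 6, 7 and 11, and 74.7, 137 and 129 in the controls. IFI6 and MX1 were among the members that overlapped between the clone sets and were named after their values were seen. IFI44L stood at 1.94 and 0.172 CPM in clones 1 and 4, 3.03, 4.17 and 3.66 in clones 6, 7 and 11, and 11.7, 45.8 and 49.1 in the controls (log2 fold change -3.78, SE 0.67, adjusted p = 0.0169, edgeR quasi-likelihood test of loss against control). Its adjusted p was 0.063 without TK+ clone 1 and 0.0759 without TK+ clone 2.

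The promoters of IFIT1, IFIT3 and B2M are shown with the motif of the interferon response element in capitals. It was searched as GAAA, 2 bases of any kind and GAAA on both strands, from the same source and build.
IFIT1 (chr10:89392472-89392551, plus strand): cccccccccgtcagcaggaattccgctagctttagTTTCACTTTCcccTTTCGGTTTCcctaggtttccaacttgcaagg
IFIT3 (chr10:89327806-89327885, plus strand): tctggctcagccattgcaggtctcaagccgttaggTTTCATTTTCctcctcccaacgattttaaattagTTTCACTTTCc
B2M (chr15:44711338-44711417, plus strand): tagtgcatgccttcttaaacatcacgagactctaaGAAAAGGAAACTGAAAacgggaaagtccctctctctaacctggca
The B2M stretch holds 2 overlapping matches, printed as 1 run of capitals. The motif was found in 7 of 10 promoters of the interferon list and 5 of 11 of the HLA list, against 3.07% of all promoters and 2.39% of those of genes that passed the filter, and in none of the 15 mitosis promoters.

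Genes of gastric and intestinal differentiation stood lower: 10 of 15 without overlap, 8 past the size rule, with a median of -1.53. The shares of all genes elsewhere were 24.8% and 5.29%. MUC13, a membrane mucin, stood at 0.968 and 0.572 CPM in clones 1 and 4, 39.2, 48.6 and 6.25 in clones 6, 7 and 11, and 9.09, 24 and 23.4 in the controls. CDH17, the liver-intestine cadherin, stood at 2.54 and 0.915 CPM in clones 1 and 4, 35.7, 39.6 and 16.9 in clones 6, 7 and 11, and 67.5, 113 and 111 in the controls. CEACAM6, a relative of CEACAM5, stood at 23.1 and 10.9 CPM in clones 1 and 4, 240.3, 229 and 109 in clones 6, 7 and 11, and 195, 208 and 245 in the controls. Clone 4 was again the lowest. TFF1, a peptide of gastric mucus, had no count in clones 1 and 4, and stood at 3.98, 1.79 and 3.32 CPM in clones 6, 7 and 11 and 19.2, 28.6 and 18 in the controls. REG4, a secreted lectin of the gut, had no count in clones 1 and 4 either, and stood at 1.37, 1.39 and 0.332 CPM in clones 6, 7 and 11 and 5.17, 78 and 8.14 in the controls. SOX2, a stem cell factor of the foregut, went the other way, at 22.9 and 23.5 CPM in clones 1 and 4, 5.82, 2.98 and 8.64 in clones 6, 7 and 11, and 16.4, 11.3 and 9.38 in the controls. HNF4A, a nuclear receptor of gut epithelium named after its values were seen, stood at 57 and 49.4 CPM in clones 1 and 4, 111, 104 and 66.8 in clones 6, 7 and 11, and 58.1, 55.3 and 73.2 in the controls. VIL1, GATA5, GATA6 and PGC overlapped, also named after their values were seen. PGC, the precursor of a pepsin, was at most 0.93 CPM in every loss clone and 17.4, 30.4 and 6.49 CPM in the controls (log2 fold change -5.43, SE 0.58, adjusted p = 0.00364, edgeR quasi-likelihood test of loss against control).

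Keratins, the filament proteins of epithelium, stood higher: 7 of 14 without overlap and none lower, with KRT6A, KRT6B and KRT13 past the size rule and a median of 0.74. Of all genes elsewhere, 24.4% were higher without overlap and 3.52% past the size rule. KRT6A stood at 155 and 288 CPM in clones 1 and 4, 145, 102 and 34 in clones 6, 7 and 11, and 18.6, 43.4 and 12.5 in the controls, so that clone 6 nearly reached clone 1. KRT13, a keratin of stratified mucosa, stood at 65.4 and 54.3 CPM in clones 1 and 4, 13.2, 15.6 and 17 in clones 6, 7 and 11, and 9.82, 10.1 and 3.19 in the controls. The basal keratin KRT5, which is in the list of basal markers, stood at 15.7 and 30.4 CPM in clones 1 and 4, 0.594, 0.728 and 0.332 in clones 6, 7 and 11, and 0.157, 0.194 and 0.059 in the controls. Its neighbour KRT75 stood at 18.2 and 27.7 CPM in clones 1 and 4, 0.119, 0.199 and 0.266 in clones 6, 7 and 11, and 2.14, 5.44 and 1.24 in the controls. Both were nearly absent from clones 6, 7 and 11. KRT14, the usual partner of KRT5, stood at 9.38 and 13.6 CPM in clones 1 and 4, 12.9, 10.5 and 2.46 in clones 6, 7 and 11, and 1.36, 1.42 and 1.83 in the controls, with no separation of the sets. Keratins resemble one another, so reads shared between KRT6A and KRT6B are uncertain. The basal markers ITGB4 and SERPINB5 were lower, by -0.51 and -0.25.

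Targets of YAP and TEAD stood higher in 5 of 10 (18 listed) without overlap (CTGF, ANKRD1, AXL, CRIM1 and LATS1), beside 24.4% of all genes elsewhere, and lower in none (median 0.67). AXL, a receptor tyrosine kinase, stood at 34.7 and 35.2 CPM in clones 1 and 4, 5.17, 4.17 and 7.18 in clones 6, 7 and 11, and 4.39, 3.56 and 3.6 in the controls. CTGF, a matricellular protein, stood at 310.2 and 263 CPM in clones 1 and 4, 48.3, 53.2 and 247 in clones 6, 7 and 11, and 217, 100 and 96.3 in the controls. CYR61, its relative, stood at 724 and 382 CPM in clones 1 and 4, 149, 150.1 and 476 in clones 6, 7 and 11, and 163, 169 and 103 in the controls. AXL separated clones 1 and 4 from all others, whereas clone 11 lay near them for CTGF and within their range for CYR61, which was named after its values were seen.

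The other lists showed smaller or mixed differences, to be read against the 24.4% of all genes elsewhere that were higher and the 24.8% that were lower without overlap. The size rule was met by 3.52% of all genes elsewhere in the higher direction and 5.29% in the lower. Members named from here on that did not meet the size rule were named after their values were seen. Of 14 NF-kB targets, 7 were lower and 2, TNFAIP3 and ICAM1, higher (median -0.46). CXCL1, a chemokine, and TNFAIP2 met the size rule, and TNFAIP2 stood at 39.3 and 32.4 CPM in clones 1 and 4, 90.4, 94.7 and 107 in clones 6, 7 and 11, and 101, 41.1 and 90.6 in the controls. Of 12 p53 targets, 6 were lower and CCNG1 was higher (median -0.28). CCNG1, cyclin G1, lies on the far part of 5q. CDKN1A, the CDK inhibitor p21, stood at 598 and 545 CPM in clones 1 and 4, 744, 746 and 719.9 in clones 6, 7 and 11, and 977, 697 and 713 in the controls. Of 12 genes of the cyclin D, CDK4/6 and RB group, 4 were higher and 3 lower (median 0.030, 0.158 without clone 1 and -0.0035 without clone 11). CDK6, a kinase of the step into the cell cycle, stood at 700.4 and 856 CPM in clones 1 and 4, 333, 373 and 435 in clones 6, 7 and 11, and 491, 384 and 384 in the controls. Of 16 MYC targets, NPM1, ODC1 and PA2G4 were higher and SRM lower (median 0.054, 0.12 without clone 6 and 0.0095 without clone 11). NPM1 too lies on the far part of 5q. MYC itself stood at 123 and 166 CPM in clones 1 and 4, 291, 286 and 119.9 in clones 6, 7 and 11, and 128, 136 and 151 in the controls, high in clones 6 and 7.

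Stress and signalling lists had median differences between -0.18 and 0.31. The median was 0.30 for the integrated stress response, -0.011 for the unfolded protein response, -0.051 for cytosolic heat shock, 0.19 for hypoxia, -0.18 for MAPK feedback, 0.031 for WNT targets, 0.24 for epithelial-mesenchymal transition (EMT) and 0.31 for the HOX clusters. Leaving out 1 clone moved several of these. The sign turned for the unfolded protein response without clone 1 (0.168) or clone 11 (0.120), and for hypoxia without clone 11 (-0.0030). It turned for heat shock without clone 1 (0.0073), 6 (0.022) or 7 (0.027), and for WNT without clone 1 (-0.022), 6 (-0.019) or 11 (-0.052). The stress response median ranged from 0.11 without clone 7 to 0.74 without clone 11, and that of EMT from 0.058 without clone 6 to 0.54 without clone 11. The HOX median ranged from 0.13 without clone 6 to 0.50 without clone 11, and that of MAPK feedback was -0.091 without clone 4. TRIB3, a pseudokinase induced by ATF4, stood at 8.17 and 7.38 CPM in clones 1 and 4, 1.37, 1.26 and 1.4 in clones 6, 7 and 11, and 1.25, 0.647 and 2.6 in the controls. FOS, an immediate-early factor, stood at 22.2 and 28.1 CPM in clones 1 and 4, 103, 107 and 59.3 in clones 6, 7 and 11, and 132, 115 and 168 in the controls. HSPA1B, an inducible heat shock protein with a near-identical copy in HSPA1A, stood at 27.3 and 24.4 CPM in clones 1 and 4, 85.2, 96.6 and 95.9 in clones 6, 7 and 11, and 140.4, 139 and 103 in the controls. BMP4, a WNT-responsive ligand, stood at 4.18 and 2.69 CPM in clones 1 and 4, 9.86, 7.15 and 13.4 in clones 6, 7 and 11, and 30.5, 47.1 and 38.6 in the controls. It fell in loss against control (log2 fold change -2.38, SE 0.43, adjusted p = 0.0178, edgeR quasi-likelihood test). Its adjusted p was 0.0535 without WT, 0.0653 without TK+ clone 1 and 0.0717 without TK+ clone 2. NOTUM, a WNT inhibitor, stood at 26.8 and 33.8 CPM in clones 1 and 4, 12.6, 15.4 and 9.7 in clones 6, 7 and 11, and 13.3, 13.4 and 19.6 in the controls. VIM and ZEB1, markers of mesenchymal cells, met the size rule in the higher direction from low levels, with VIM at 3.15 and 2.23 CPM in clones 1 and 4 and 0.772, 0.861 and 2.19 in clones 6, 7 and 11. SNAI1, a repressor of epithelial genes, met it in the lower direction, at 7.02 and 8.81 CPM in clones 1 and 4, 24.6, 25.2 and 13.1 in clones 6, 7 and 11, and 8.15, 14.2 and 8.44 in the controls. Of the other members, GRHL2, a factor of epithelium, was higher, and ITGA5 and ESRP2 were lower without overlap, so the EMT list had 3 of 12 in each direction. Cholesterol synthesis genes had a median difference of 0.42 between the clone sets, with 4 of 16 higher without overlap, a share close to the 24.4% of all genes elsewhere. Without clone 11 the median was -0.017. Against the controls their median was 1.41 and 1.51 in clones 1 and 4, 1.65 and 1.46 in clones 6 and 7 and 0.11 in clone 11. None of the 22 cancer-testis genes listed passed the filter.

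**Figure D5:**
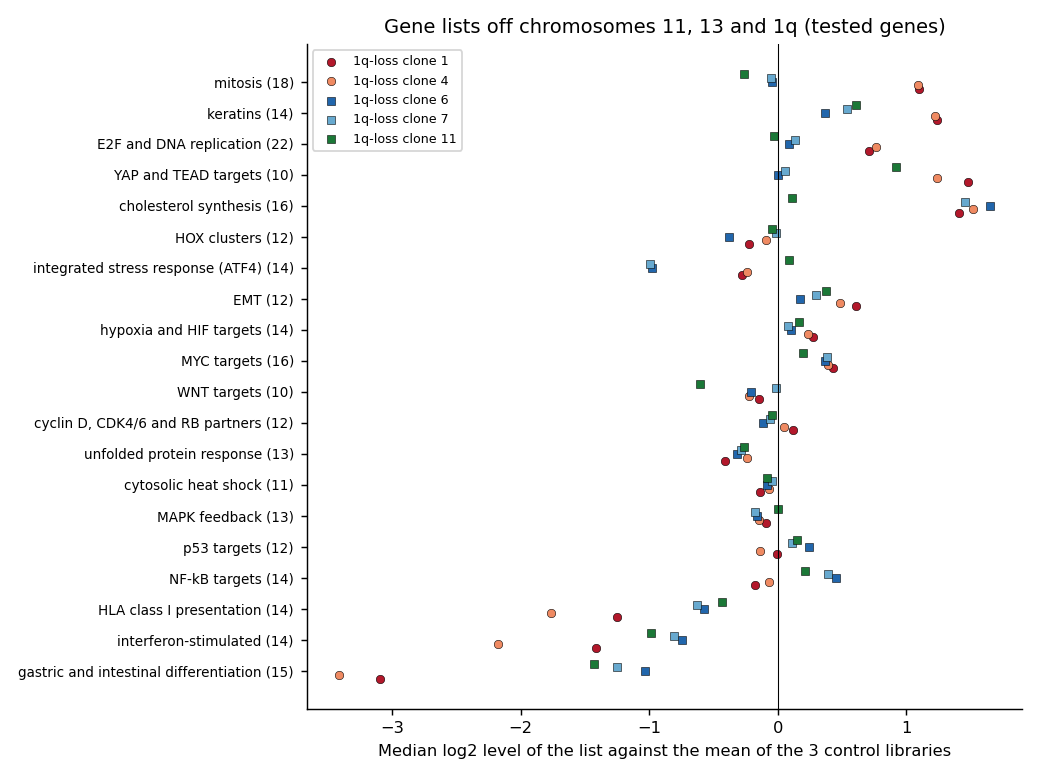
Median level of 20 gene lists away from chromosomes 11, 13 and 1q against the 3 controls (log2, x axis) in the 5 loss clones, 1 point per clone. For mitosis, clones 1 and 4 lie at 1.10 and 1.09, where clones 6, 7 and 11 lie between -0.26 and -0.04, and clone 11 alone lies near 0 for cholesterol synthesis.

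The one comparison the labels define, all 5 loss clones against the 3 controls, called 1131 of 14988 genes (7.55%) at an adjusted p under 0.05 in edgeR's quasi-likelihood test with Benjamini-Hochberg adjustment. Away from chromosomes 11, 13 and 1q it called 844 of 13241 (6.37%), 452 higher (3.41%) and 392 lower (2.96%). On chromosome 11 it called 38 genes higher and 17 lower of 825 (6.67%), with a median log2 fold change of 0.23, and on 13q 6 higher and 4 lower of 263 (3.80%), with a median of -0.058. None of the 18 mitosis genes and none of the 22 replication genes was called, although both lists stood apart in clones 1 and 4 (1 and 8 had an unadjusted p under 0.05); DESeq2 called 0 and 3 of them. The interferon list had 6 of 14 called lower, the gastric and intestinal list 6 of 15 lower, the HLA list 2 of 14 lower and the keratins 5 of 14 higher. Without clones 1 and 4 these became 4, 8, 5 and 3 genes called in either direction. When 1 library was left out they ranged from 0 to 5, 2 to 6, 0 to 3 and 0 to 6. Cholesterol synthesis had 11 of 16 called higher, 3 without clones 1 and 4 and between 0 and 14 when 1 library was left out. Leaving out 1 control cut the genes called elsewhere to 116 without WT, 147 without TK+ clone 1 and 76 without TK+ clone 2, and leaving out loss clone 11 raised them to 1423. Among the genes named here that were called with all 8 libraries, CRIM1 and PA2G4 were not followed through the 12 alternatives. COL4A1, GATA5 and PGC were called in all 12, with adjusted p between 2.32e-09 and 0.047 for COL4A1. KRTAP3-1, KRT14, BMP4, MDM4, IFI44L and REG4 were called in 9 or 10 of the 12. CTTN, KRT6A, KRT8, KRT19, SC5D, EDNRB, IFI6, TFF1, UCP2, LYZ, MMP1, PSMB9, GSTM4, H19, UCK2, KLF12 and GABRA3 were called in 3 to 8 of them.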

How the data were processed

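RNA-seq counts of reads per gene, deposited by the authors, were used for 8 AGS libraries; the other 54 libraries were not analysed here. Per the submitters' processing notes, HISAT2 2.0.5, featureCounts 1.5.0-p3 and hg38 were used; strand use and the annotation are not given in the sources used here. Per the labels' protocols, poly(A) RNA was captured and primed with random hexamers. The 58735 genes were matched to GENCODE 29 by ID, 58724 of them with the same coordinates, and no entry of the tables named no gene. Genes were kept with edgeR 4.0.16 filterByExpr (minimum count 10, minimum total 15). Levels are CPM of TMM-scaled libraries, and log2 values have a prior count of 2. A difference is the mean log2 CPM of clones 1 and 4 minus that of clones 6, 7 and 11, and its SD is over clones 6, 7 and 11. Counting error and the single library per clone limit precision. The label-based comparison was fitted with edgeR's quasi-likelihood test (R 4.3.3, limma 3.58.1) and checked on simulated data, with DESeq2 1.42.0 as an alternative. It measures the spread between these clones only.

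Members and gene lists were chosen with earlier results of these data known. Genes were named by rule: any member of the chromosome 11 and 13 lists could be named, as could the 10 protein-coding genes with the largest change on each of these arms and direction (mean CPM of at least 1), the 15 with the largest increase and decrease elsewhere (mean CPM of at least 5 in the higher set), list members past the size rule, and MDM4 and UCK2; all others, marker genes and list members short of the size rule included, were named after their values were seen. Values of a few genes are not reported here. Overlapping genes, and genes with near-identical copies, may share reads. Alternatives were other size factors, prior counts and filters, a stricter size rule, and leaving out each library. Values were computed with Python 3.11.15, numpy 2.4.6 and pandas 2.3.3 and drawn with matplotlib 3.10.9.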

Additional observations from a re-analysis of the deposited data

Results flagged for a closer look

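Among 31 values looked at in the 5 loss clones, 3 held a clone far from the other 4. The values were shifts of chosen arms and arm segments, list medians against the controls, total counts and the mitochondrial percent of counts. Chance alone gives about 1 in 20 for values fixed beforehand. The arms were only a chosen part of all arms, 8p among them, and the lists were chosen with earlier results known. That rate therefore does not hold here. The shift of 8p was -0.617 in clone 4 and between 0.0105 and 0.0910 in clones 1, 6, 7 and 11. The median of the cholesterol synthesis list was 0.111 in clone 11 and between 1.41 and 1.65 in clones 1, 4, 6 and 7. The median of the MYC target list was 0.193 in clone 11 and between 0.365 and 0.426 in the other 4. Clone 11 is the library made with ReDACT-CO, so for these lists the clone and the technique cannot be told apart.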

How the results depend on the processing

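The direction of the chromosome 11 and 13q shifts held under each alternative tried. With no filter on low counts the shifts were 0.219 for 11p, 0.325 for 11q and -0.192 for 13q, with 100 chromosome 11 genes lower, 28 genes of 13q higher, and 885 higher and 1142 lower elsewhere; that setting tests more genes. With a log2 difference of at least 2 the counts elsewhere were 61 and 140. The gastric and intestinal median was -1.17 with a mean CPM of at least 1; the cause was not tested. DESeq2 called 1789 genes elsewhere for loss against control. In alternatives chosen after seeing the data, leaving out distal 5q and 8p gave 443 higher and 682 lower elsewhere, and leaving TK+ clone 1 out of the controls moved the shifts by less than their SD.

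Leaving out 1 clone gave ranges of 0.40 to 0.46 for 11p, 0.37 to 0.52 for 11q and -0.54 to -0.51 for 13q. Chromosome 11 counts ranged from 512 to 581 higher and 75 to 115 lower, 13q counts from 17 to 29 higher and 167 to 187 lower, and elsewhere from 458 to 632 higher and 711 to 932 lower. Genes called elsewhere for loss against control ranged from 356 to 1423 when 1 loss clone was left out. They ranged from 76 to 147 when 1 control was left out. List medians ranged from 1.14 to 1.26 for mitosis, 0.71 to 0.80 for replication, -1.53 to -0.81 for HLA, -1.84 to -0.90 for interferon, -1.85 to -1.24 for gastric and intestinal genes, 0.70 to 0.79 for keratins, 0.56 to 0.94 for YAP, -0.68 to -0.38 for NF-kB, -0.37 to -0.20 for p53, 0.0095 to 0.12 for MYC, -0.0035 to 0.16 for cyclin D, 0.058 to 0.54 for EMT, 0.13 to 0.50 for HOX, -0.26 to -0.091 for MAPK, -0.052 to 0.075 for WNT, 0.11 to 0.74 for the integrated stress response, and -0.017 to 0.68 for cholesterol synthesis. The sign turned for the unfolded protein response (0.168 without clone 1, 0.120 without clone 11, lowest -0.16, and 0.0025 with TMM factors from the other arms), heat shock (0.0073, 0.022 and 0.027 without clones 1, 6 and 7, lowest -0.11) and hypoxia (-0.0030 without clone 11, highest 0.20). It also turned without clone 11 for cyclin D, cholesterol synthesis and WNT (-0.052), and for WNT without clones 1 (-0.022) and 6 (-0.019).

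No paired analysis was possible because the loss clones and the controls share only the number 1, which names clones and pairs nothing. All 5 clones are 1 library each, 2 of them against 3.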

Other observations

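Some neighbouring genes away from chromosomes 11 and 13 differed together between the clones, and all genes given here were named after their values were seen. The type III interferon genes on chromosome 19 were lower: IFNL1, a secreted antiviral cytokine, stood at 1.63 and 3.03 CPM in clones 1 and 4, 17.5, 16.2 and 8.91 in clones 6, 7 and 11, and 3.08, 4.08 and 6.02 in the controls. Its neighbours IFNL2 and IFNL3 are near-identical copies. IFNL2 had 1 and 3 counts in clones 1 and 4, 19, 21 and 16 in clones 6, 7 and 11, and 11, 13 and 28 in the controls. IFNL3 had 2 and 0 counts in clones 1 and 4, 46, 39 and 17 in clones 6, 7 and 11, and 3, 5 and 27 in the controls. The chemokine genes CCL4, CCL3L1 and CCL4L2 on chromosome 17 were highest in clones 6 and 7. CCL4L2 stood at 0.605 and 0.515 CPM in clones 1 and 4, 5.4, 6.75 and 1.06 in clones 6, 7 and 11, and 0.366, 0.453 and 0.944 in the controls, and CCL4 had 7 and 1 counts in clones 1 and 4, 78, 66 and 11 in clones 6, 7 and 11, and 2, 0 and 5 in the controls. These copies resemble one another, so how their reads were divided is uncertain.

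The glutathione transferases GSTM1, GSTM2 and GSTM4 on the short arm of chromosome 1, which detoxify reactive compounds, were lower. GSTM4 stood at 60.3 and 23.8 CPM in clones 1 and 4, 136, 149.9 and 166 in clones 6, 7 and 11, and 365, 592 and 381 in the controls, and the loss clones as a whole lay below the controls. GSTM1 stood at 11.2 and 0.915 CPM in clones 1 and 4, 24.1, 24.5 and 19.7 in clones 6, 7 and 11, and 32.2, 25.8 and 40.7 in the controls, with clone 4 nearly without it. They overlap one another in the annotation, so their reads may be shared. The keratin-associated protein KRTAP3-1 on chromosome 17, a gene of hair, stood at 18.4 and 19.7 CPM in clones 1 and 4, 4.33, 5.83 and 4.45 in clones 6, 7 and 11, and 1.1, 1.36 and 0.885 in the controls, and KRTAP2-4 at 2.54 and 4.52 CPM in clones 1 and 4, 0.297, 0.662 and 0.465 in clones 6, 7 and 11, and 0, 0.129 and 0.059 in the controls; clones 1 and 4 were highest for both and the controls lowest or near it.

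VEGFA, the main growth factor of vessels, stood at 257 and 303 CPM in clones 1 and 4, 412, 407 and 822 in clones 6, 7 and 11, and 888, 720.2 and 1081 in the controls, lower in clones 1 and 4 than in every other library, with clones 6 and 7 next. PTPN14, a phosphatase that binds YAP1 and whose gene lies on 1q, stood at 223 and 226 CPM in clones 1 and 4, 88.2, 87.2 and 115 in clones 6, 7 and 11, and 163, 125 and 147 in the controls: clones 1 and 4 were above the controls although their 1q was lowered. TNFRSF10B, a death receptor inside the part of 8p lowered in clone 4, stood at 256 and 125 CPM in clones 1 and 4, 289, 274 and 416 in clones 6, 7 and 11, and 353, 323 and 341 in the controls.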
